A study of Mus musculus with 6 samples.

Results

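The genes described here encode the secreted and membrane proteases that cut the extracellular matrix, their inhibitors and a related set of proteins without a protease domain. They were taken by name and annotation: protein-coding genes whose symbol begins with Mmp, Timp, Adamts or Adamtsl followed by a number. Of 54532 rows with a gene name, 50 met this rule, namely 22 Mmp genes, 4 Timp genes, 19 Adamts genes and 5 Adamtsl genes. RNA was sequenced from the mouse myoblast line C2C12, whose cells fuse into myotubes. The 3 Gmppb-KO libraries came from cells transfected with CRISPR/Cas9 plasmids, one with GFP and another with puromycin resistance, carrying guides to exons 1 and 5 of Gmppb, then selected with puromycin and expanded as monoclonal cells. The 3 wild-type libraries came from C2C12 cells of the unedited genotype, and cells of both genotypes were lysed after 2 days of culture. It is not stated if the Gmppb-KO libraries represent 1 clone or several, nor if the wild-type cells also went through transfection, puromycin and cloning, so an effect of clone or selection cannot be told apart from that of genotype. Nothing says that replicates were separate cultures, so p-values take in just the spread among these libraries, which may be technical.

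Matrix metalloproteinases, the products of the Mmp genes, are zinc-dependent enzymes made as inactive precursors. They cut collagens, laminins, proteoglycans and cell surface proteins, and the tissue inhibitors of metalloproteinases, the Timp products, block them by binding the active site. Adamts proteases carry thrombospondin type 1 repeats, which hold them in the matrix, and include enzymes that trim procollagen and enzymes that cut the large proteoglycans versican and aggrecan. Adamtsl proteins share the repeats but lack the protease domain, and several of them bind fibrillin microfibrils. In muscle, these enzymes are known for remodelling the matrix around satellite cells and myoblasts as they migrate and fuse. Gmppb makes GDP-mannose, the precursor of the GDP-fucose used to add O-linked fucose to thrombospondin repeats.

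Total counts in named genes lay between 17616250 and 18566759 in Gmppb-KO libraries and between 16011021 and 17964344 in wild-type libraries. Transcripts of Gmppb itself were counted at 20.6, 16 and 13 CPM (counts scaled to a common library size) in Gmppb-KO replicates 1, 2 and 3 and 18.1, 20.9 and 23.9 CPM in wild-type replicates 1, 2 and 3. It did not pass the gene test (edgeR adjusted p = 0.459), so its level does not check the genotype labels. Of 9 myogenic markers, 7 fell and 0 rose, with Myod1, the factor that defines myoblasts, at 0.326, 0.56 and 0.471 CPM in Gmppb-KO and 160, 163 and 152 CPM in wild-type libraries. Mymk, Myog, Pax7 and Chrna1 fell 20.2-fold, 14.3-fold, 10.6-fold and 1.95-fold, and Ckm and Myh3, at few counts, fell too. Myod1, Pax7, Ckm and Myh3 passed the filter on low counts only through wild-type libraries, so their calls could only be lower. The near loss of Myod1 thus goes against the myoblast label of the Gmppb-KO libraries, while Chrna1, though lower, still averaged 213 CPM in them. Des, encoding the muscle intermediate filament desmin, had 3820, 3751 and 1935 CPM in Gmppb-KO and 4365, 5122 and 3263 CPM in wild-type libraries. Des did not pass (edgeR adjusted p = 0.497). Myf5, another factor of myoblasts, had 29.2, 48.7 and 93.7 CPM in Gmppb-KO and 26.7, 29.4 and 12.9 CPM in wild-type libraries and did not pass (edgeR adjusted p = 0.168). The summed level of the 9 markers, most of it Des, ranged from 2253 to 4075 CPM in Gmppb-KO and from 3951 to 5733 CPM in wild-type libraries. The part of the marker changes in those of matrix protease genes was not tested. Of 12786 genes tested with edgeR, 5.59% were called at an adjusted p under 0.05, 2.32% higher and 3.27% lower in Gmppb-KO. In bulk RNA, fewer cells of a type and less RNA per cell cannot be told apart.

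A few matrix protease genes differed by several-fold in Gmppb-KO cells. Mmp2, encoding the gelatinase that cuts denatured collagen and type IV collagen, and Adamts2, encoding the procollagen N-proteinase, rose 3.73-fold and 4.01-fold. Adamts1 and Adamts5, neighbouring genes for proteases that cut versican and aggrecan, rose 5.11-fold and 4.96-fold, and 3.31-fold and 2.83-fold when Gmppb-KO replicate 3 was left out. Mmp23, encoding a membrane-bound protease without the usual hemopexin domain, was the 1 member that edgeR called lower. Its fall, 13.4-fold, was the widest margin but rests on small counts, and it passed the filter on low counts only through wild-type libraries. None of the 3 tested inhibitor genes and none of the 4 tested Adamtsl genes passed the test (edgeR; 0 of each had an unadjusted p below 0.05, and DESeq2 and limma voom called 0 of each).

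Of the 50 genes 25 could be tested, because the others were below the filter on low counts. EdgeR called 4 of the 25 higher and 1 lower, which is 20% of the tested members, against 5.59% of all tested genes. By direction, 16% of the tested members were higher and 4% lower, against 2.32% and 3.27% of all tested genes. The members were chosen with earlier results of these data known, so these shares describe the set alone. DESeq2 called 7 members, 5 higher and 2 lower, where it called 8.17% of all genes it tested, 3.33% higher and 4.84% lower. Limma voom called 4, namely 3 higher and 1 lower, where it called 5.53% of all genes, 2.24% higher and 3.28% lower. An unadjusted edgeR p below 0.05 was reached by 7 members and by 20.1% of all genes. The 2 groups of libraries did not overlap in 12 of the 25 members, or 48%, against 26.1% of all tested genes. The median log2 fold change of the 25 was 0.15, beside 0.11 over all 12786 genes, with 16 values above and 9 below 0. The changes of the 25 ranged from -3.75 to 2.35.

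**Figure D1:**
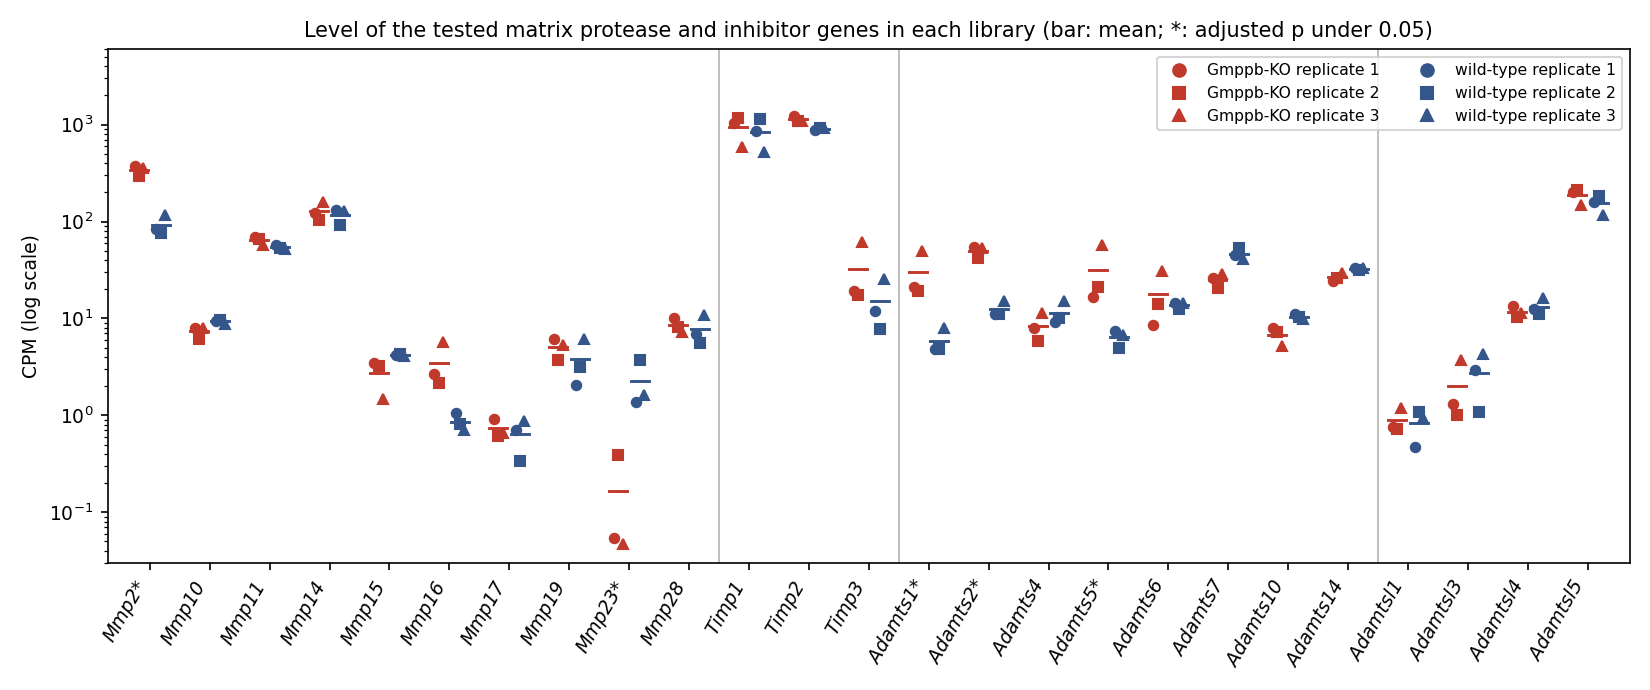
CPM on a log axis for the 25 tested members, in Gmppb-KO (red) and wild-type (blue) libraries, with 1 point per library, a bar at each group mean and an asterisk for genes past the threshold. Mmp2 and Adamts2 stand apart between the groups with little spread, Adamts1 and Adamts5 have a high Gmppb-KO replicate 3, and Timp1 and Timp2 lie between 517 and 1215 CPM over both groups.

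Among the gelatinases, Mmp2 (ENSMUSG00000031740, mm10 chromosome 8, 92827291 to 92853420, plus strand) had 375, 297 and 358 CPM in Gmppb-KO replicates 1, 2 and 3 and 83, 76.9 and 116 CPM in wild-type replicates 1, 2 and 3. All Gmppb-KO libraries lay well above all wild-type libraries. Gmppb-KO libraries averaged 343 ± 41.5 CPM and wild-type libraries 92 ± 21.1 CPM (SD, n = 3 each). The log2 fold change was 1.90 ± 0.23 (SE; 95% interval 1.37 to 2.43; edgeR adjusted p = 0.0028). Mmp9, the other gelatinase and an enzyme abundant in leukocytes, had 1, 1 and 0 counts in Gmppb-KO and 0 counts in each wild-type library.

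Mmp2 is activated at the cell surface by the membrane protease Mmp14 together with the inhibitor Timp2, and neither of these partners passed the test. Mmp14 had 124, 105 and 161 CPM in Gmppb-KO and 132, 91.8 and 129 CPM in wild-type libraries. Its groups overlapped, and its log2 fold change of 0.14 had a 95% interval from -0.40 to 0.68, so a change of the size seen in Mmp2 lies outside the interval. Its sign turned to -0.09 when Gmppb-KO replicate 3 was left out and to -0.04 when wild-type replicate 2 was. Timp2 had 1215, 1095 and 1092 CPM in Gmppb-KO and 875, 916 and 931 CPM in wild-type libraries. All Gmppb-KO values of Timp2 were above all wild-type values, but the log2 fold change of 0.32 ± 0.21 (SE) gave an edgeR adjusted p of 0.399. Per kilobase of gene length, the scale on which levels of different genes can be compared, Mmp2 was at 5.35, 5.01 and 3.94 times Mmp14 in Gmppb-KO libraries and at 1.11, 1.48 and 1.59 times in wild-type libraries. Timp2 was at 2.8, 3.19 and 2.64 times Mmp2 in Gmppb-KO libraries and at 9.12, 10.3 and 6.94 times in wild-type libraries, so the inhibitor remained the more abundant messenger RNA in every library.

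The other membrane-type Mmp genes were lower in level and mixed in direction. Mmp23 (ENSMUSG00000029061, chromosome 4, 155650655 to 155653384, minus strand) had 1, 7 and 1 counts in Gmppb-KO and 23, 55 and 28 counts in wild-type libraries. The groups did not overlap, though the counts are small and Gmppb-KO replicate 2 held most of those in its group. In CPM this was 0.0544, 0.392 and 0.0471 in Gmppb-KO and 1.37, 3.71 and 1.64 in wild-type libraries, a log2 fold change of -3.75 ± 0.81 (SE; edgeR adjusted p = 0.0341). Mmp23 passed the filter on low counts only through the wild-type group, where it is high, so a call could only be lower. Of the 6 fits that left out 1 library, the call held in 1, that lacking Gmppb-KO replicate 2, where the log2 fold change was -5.28. Mmp16, a membrane protease that can also activate Mmp2, is named here after its values were seen: it had 2.67, 2.18 and 5.66 CPM in Gmppb-KO and 1.07, 0.81 and 0.702 CPM in wild-type libraries. The groups of Mmp16 did not overlap, and its log2 fold change of 2.02 ± 0.49 (SE) missed the edgeR threshold at an adjusted p of 0.0548, while DESeq2 called it at 0.00969. Mmp15 and Mmp17, with 0.643 and 1.13 as their fold over wild-type, did not pass, and Mmp24 was not tested, at 8, 19 and 10 counts in Gmppb-KO and 7, 9 and 2 counts in wild-type libraries.

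Mmp11, the stromelysin whose precursor is cut inside the cell by furin, had 68.6, 66.4 and 56.8 CPM in Gmppb-KO and 57.3, 52.8 and 52.4 CPM in wild-type libraries. The ranges touched, with Gmppb-KO replicate 3 just under wild-type replicate 1, and the log2 fold change of 0.24 (95% interval -0.17 to 0.65) did not pass. Mmp10, Mmp19 and Mmp28 had log2 fold changes of -0.34, 0.43 and 0.14 at means under 10 CPM in both groups, and none passed. The signs of Mmp17 and Mmp28 turned under some of the other settings. The exons of Mmp19 share 22.3% of their bases with Tmem198b on the opposite strand, and since the strand setting of the counting is not given in the sources used here, reads of those genes cannot be separated.

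The collagenase and stromelysin cluster on chromosome 9 gave few or no counts. It holds 9 members in 427072 bases, from 7272514 to 7699585, and only Mmp10 passed the filter on low counts. Mmp1b, Mmp7, Mmp20 and Mmp27 had 0 counts in all 6 libraries. Mmp13, the main collagenase of rodents, had 2 counts over the Gmppb-KO group and 0 over the wild-type group, and Mmp8, the neutrophil collagenase, had 6 in Gmppb-KO and 1 in wild-type. Mmp3 had 12 counts over the Gmppb-KO group and 9 over the wild-type group, and Mmp12, the macrophage elastase, had 0 in Gmppb-KO and 7 in wild-type. Outside the cluster, Mmp21 and Mmp25 had 0 counts in all 6 libraries. At these counts a difference was not detectable.

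**Figure D2:**
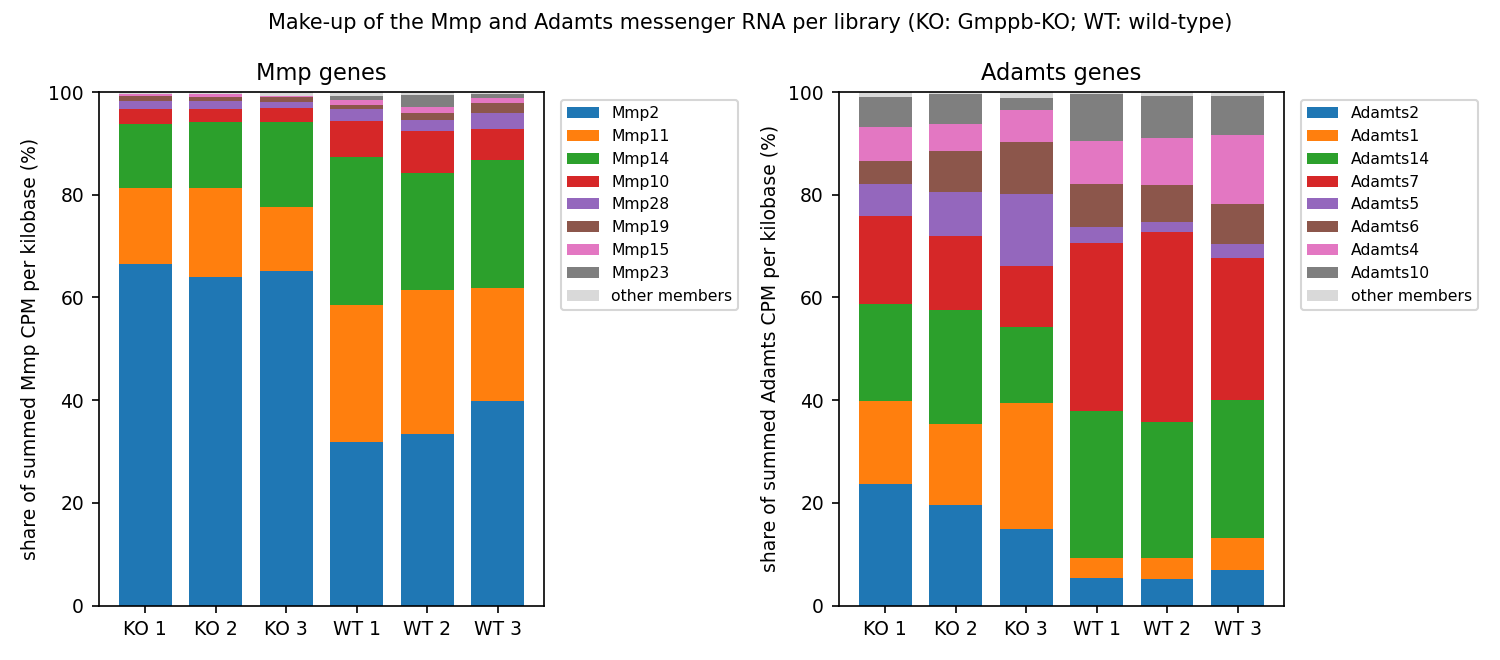
Share of the summed CPM per kilobase held by each member of the Mmp family (left) and the Adamts family (right), with 1 stacked bar per library and Gmppb-KO libraries on the left of each panel. Mmp2 holds 64 to 66.6% of the Mmp total in Gmppb-KO libraries and 31.9 to 39.9% in wild-type libraries, and Adamts2, Adamts1 and Adamts5 hold more of the Adamts total in each Gmppb-KO library than in any wild-type library.

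The make-up of the Mmp messenger RNA shifted with Mmp2. Summed over the family, the Mmp level was 167, 138 and 163 CPM per kilobase in Gmppb-KO and 77.2, 68 and 86.4 CPM per kilobase in wild-type libraries. Mmp2 made up 65.2 ± 1.32% of it in Gmppb-KO and 35.1 ± 4.22% in wild-type libraries (SD, n = 3 each). Mmp14 made up 13.9 ± 2.26% in Gmppb-KO and 25.5 ± 3.06% in wild-type libraries, and Mmp11 made up 14.9 ± 2.43% in Gmppb-KO and 25.5 ± 3.24% in wild-type libraries. Shares of 1 total are tied to each other, so the lower shares of Mmp14 and Mmp11 do not show lower levels of these genes. The other 19 Mmp genes together held the rest, led by Mmp10 at 2.74 ± 0.139% in Gmppb-KO and 7.12 ± 1.18% in wild-type libraries. The summed Adamts level was 24.7, 22.8 and 38.3 CPM per kilobase in Gmppb-KO and 22.3, 22.7 and 23.7 CPM per kilobase in wild-type libraries, which overlapped. Within it Adamts2 held 19.4 ± 4.42% in Gmppb-KO and 5.78 ± 0.938% in wild-type libraries, and Adamts1 held 18.9 ± 4.96% in Gmppb-KO and 4.81 ± 1.31% in wild-type libraries. Adamts7 was the leading member in wild-type cells, with 14.4 ± 2.57% in Gmppb-KO and 32.5 ± 4.63% in wild-type libraries.

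Inhibitor messenger RNA was the most abundant of the set in both genotypes. Timp1, an inhibitor induced by growth factors and inflammatory signals, had 1030, 1184 and 591 CPM in Gmppb-KO and 863, 1149 and 517 CPM in wild-type libraries. Replicate 3 was the lowest in both groups, and the groups overlapped across nearly their whole range, with a log2 fold change of 0.15 (95% interval -0.69 to 0.99) whose sign turned without Gmppb-KO replicate 1 or 2 or wild-type replicate 3. Timp3, which is bound to the matrix and also inhibits Adamts proteases, had 19.3, 17.4 and 60.9 CPM in Gmppb-KO and 11.8, 7.83 and 25.7 CPM in wild-type libraries. Replicate 3 was the highest in both groups of Timp3, the groups overlapped, and the log2 fold change of 1.11 ± 0.59 (SE) did not pass (edgeR adjusted p = 0.324). Without Gmppb-KO replicate 3 its fold over wild-type was 1.17, against 2.15 with it. Of its exon bases, 21.3% overlap Syn3 on the opposite strand. Timp4 had 6 counts in all. The summed inhibitor level was 8.82, 11.8 and 5.84 times the summed Mmp level per kilobase in Gmppb-KO and 15.5, 22.5 and 9.54 times in wild-type libraries, with Gmppb-KO replicate 2 above wild-type replicate 3.

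Per kilobase, Timp1 was first and Timp2 second in both genotypes, at 1053 ± 347 and 291 ± 17.9 CPM per kilobase in Gmppb-KO and 949 ± 357 and 233 ± 7.51 CPM per kilobase in wild-type libraries. Mmp2 came next in Gmppb-KO libraries, at 102 ± 12.3 CPM per kilobase, against 27.3 ± 6.27 in wild-type libraries. There it stood at rank 4, behind Adamtsl5 at 32.7 ± 7.10, a neighbour within its SD. Mmp11 and Mmp14 also did not differ beyond their SD in either genotype, at 23 ± 2.26 and 21.8 ± 4.77 CPM per kilobase in Gmppb-KO libraries. Adamts1 and Adamts2 stood at ranks 7 and 8 of the 25 in Gmppb-KO and at 17 and 16 in wild-type libraries, and in Gmppb-KO they lay within an SD of Adamts14. In wild-type libraries Adamts14 stood at rank 8 and Adamts7 at rank 7.

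**Figure D3:**
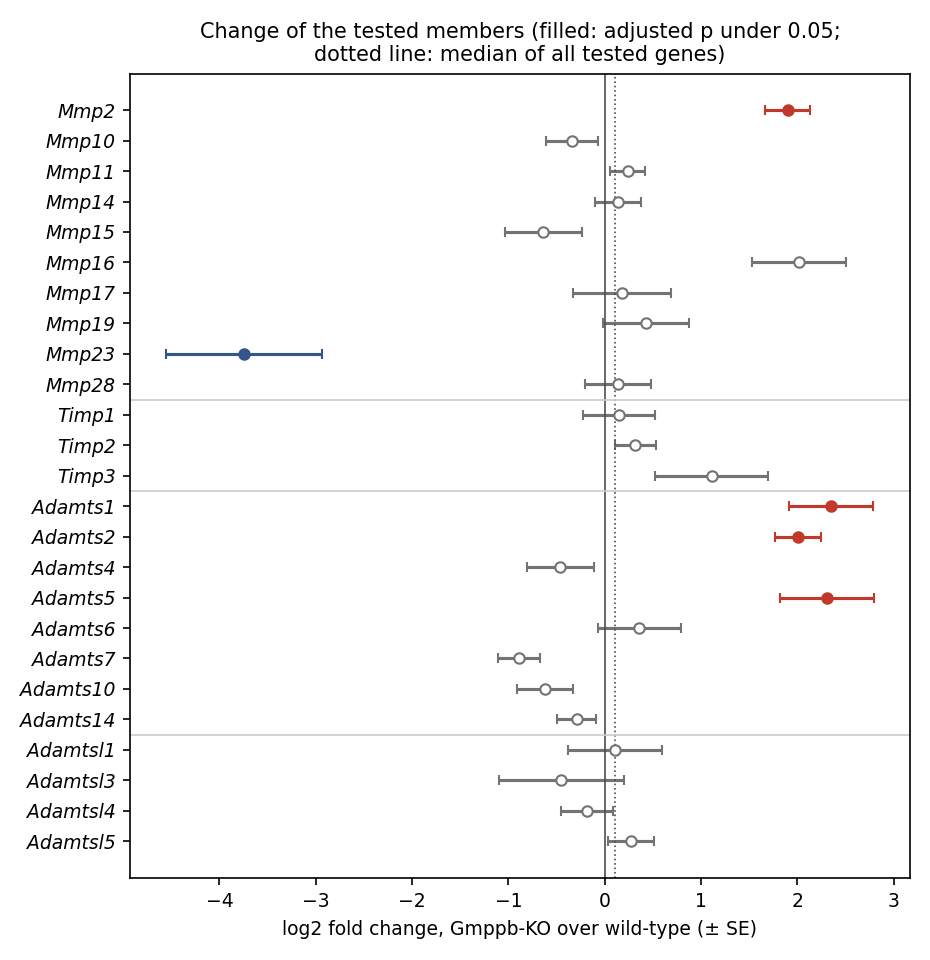
Log2 fold change of Gmppb-KO over wild-type for the 25 tested members, ordered by family, with bars of 1 SE, filled points for those past the threshold and a dotted line at the median of all tested genes. The 4 risen members lie between 1.90 and 2.35, Mmp23 lies at -3.75, and Mmp16 and Adamts7 lie away from 0 without passing.

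Among the procollagen N-proteinases, which remove the amino-terminal propeptide of fibrillar procollagens, Adamts2 changed and its close relative Adamts14 did not pass. Adamts2 (ENSMUSG00000036545, chromosome 11, 50602084 to 50807573, plus strand) had 54.7, 41.6 and 53.3 CPM in Gmppb-KO and 11, 11 and 15.2 CPM in wild-type libraries. The groups were far apart, with means of 49.9 ± 7.20 CPM in Gmppb-KO and 12.4 ± 2.42 CPM in wild-type libraries (SD, n = 3 each). The log2 fold change was 2.01 ± 0.24 (SE; 95% interval 1.46 to 2.55; edgeR adjusted p = 0.00261). Adamts14 had 24.3, 26.1 and 29.5 CPM in Gmppb-KO and 33.2, 31.3 and 33.1 CPM in wild-type libraries. All Gmppb-KO values of Adamts14 were lower than all wild-type values, by a small margin, and the log2 fold change of -0.29 (95% interval -0.74 to 0.16) did not pass. The ratio of Adamts2 to Adamts14 per kilobase was 1.26, 0.888 and 1.01 in Gmppb-KO and 0.185, 0.196 and 0.256 in wild-type libraries. Adamts3, the third enzyme of this kind, had 0 counts in all libraries.

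Among the proteases that cut versican and aggrecan, Adamts1 and Adamts5 rose and Adamts4 did not pass. Adamts1 (ENSMUSG00000022893, chromosome 16, 85793827 to 85803113) and Adamts5 (ENSMUSG00000022894, chromosome 16, 85856173 to 85901828) lie on the minus strand with 53059 bases and 1 annotated gene between them. Adamts1 had 21.2, 19 and 49.9 CPM in Gmppb-KO and 4.81, 4.86 and 7.96 CPM in wild-type libraries, a log2 fold change of 2.35 ± 0.44 (SE; edgeR adjusted p = 0.0179). Adamts5 had 16.6, 21.1 and 57.9 CPM in Gmppb-KO and 7.48, 4.99 and 6.79 CPM in wild-type libraries, a log2 fold change of 2.31 ± 0.49 (SE; edgeR adjusted p = 0.03). In both genes all Gmppb-KO libraries exceeded all wild-type libraries, and Gmppb-KO replicate 3 stood at 2.35 and 2.75 times the next highest library of its group. Without that library Adamts1 and Adamts5 were still called, at 3.31-fold and 2.83-fold, and both calls were lost without wild-type replicate 1 or 2; that of Adamts5 was also lost without wild-type replicate 3, with limma voom and under scaling by library size only.

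Adamts4 had 7.89, 5.82 and 11.4 CPM in Gmppb-KO and 9.09, 10.1 and 15.3 CPM in wild-type libraries. Its groups overlapped and its log2 fold change was -0.46 (95% interval -1.26 to 0.35). Adamts8, Adamts9, Adamts15 and Adamts20, also able to cut proteoglycans, were below the filter, with 10 counts of Adamts8, 2 of Adamts9 and 0 of Adamts20 over all libraries. Of these Adamts15 was the highest, with 3 counts in each Gmppb-KO library and 2, 7 and 11 counts in wild-type libraries. Of their substrates, Vcan, encoding versican, had 37, 38.9 and 131 CPM in Gmppb-KO and 29.2, 17.5 and 30.7 CPM in wild-type libraries. Gmppb-KO replicate 3 was again far above the rest, and Vcan did not pass (edgeR adjusted p = 0.174). Acan, encoding aggrecan, had 0 counts in all libraries.

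The promoters of called members are shown to let the start sites of the risen and fallen genes be read side by side. They are 250 bases upstream of the RefSeq start (GRCm38.p6, the build of mm10), available for 3 of the 5 called members, Adamts1, Adamts2 and Mmp23, and each start lies within 1 base of the deposited one. Mmp23 had 2 RefSeq windows, of which that nearest to the deposited start is shown. Each is printed 5′ to 3′ on the gene's strand, from the positions chr16:85803114-85803363 on the minus strand for Adamts1, chr11:50601835-50602084 on the plus strand for Adamts2 and chr4:155653385-155653634 on the minus strand for Mmp23. Capitals mark GGAA or its reverse complement TTCC, the core letters of Ets factor sites.
Adamts1: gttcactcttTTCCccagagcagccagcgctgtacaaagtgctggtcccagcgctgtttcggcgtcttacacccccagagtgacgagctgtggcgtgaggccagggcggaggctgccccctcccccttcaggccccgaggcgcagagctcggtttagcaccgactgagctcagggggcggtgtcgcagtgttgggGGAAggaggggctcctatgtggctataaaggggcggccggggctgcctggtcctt
Adamts2: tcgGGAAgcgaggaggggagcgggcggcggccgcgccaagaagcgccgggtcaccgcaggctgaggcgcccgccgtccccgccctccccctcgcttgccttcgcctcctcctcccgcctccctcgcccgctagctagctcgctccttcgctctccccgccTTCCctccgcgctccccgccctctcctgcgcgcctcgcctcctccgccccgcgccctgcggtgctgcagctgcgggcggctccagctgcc
Mmp23: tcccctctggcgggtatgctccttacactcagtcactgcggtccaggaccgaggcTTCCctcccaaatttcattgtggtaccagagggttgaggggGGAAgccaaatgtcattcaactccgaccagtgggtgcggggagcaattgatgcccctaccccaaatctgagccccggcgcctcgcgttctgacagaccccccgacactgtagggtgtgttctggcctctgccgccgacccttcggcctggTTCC
GGAA occurred on either strand 2 times in the Adamts1 window, 2 times in that of Adamts2 and 3 times in that of Mmp23. It was present in 93.4% of 27025 RefSeq promoter windows of the same length. The matches do not overlap each other. TGANTCA, the letters of AP-1 sites, which reads the same on both strands, was in none of the 3 windows and in 6.87% of all windows. A match describes the letters alone.

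Adamts7, which cuts cartilage oligomeric matrix protein, was the member nearest to the threshold among those not called. It had 26.3, 20.7 and 28.5 CPM in Gmppb-KO and 45.7, 52.9 and 41.4 CPM in wild-type libraries. The groups were well separated, and the log2 fold change of -0.89 (95% interval -1.39 to -0.40) gave an edgeR adjusted p of 0.0535, while DESeq2 called it at 0.00759. Adamts12, its closest relative, was not tested, at 7, 7 and 45 counts in Gmppb-KO and 7, 0 and 9 counts in wild-type libraries, where Gmppb-KO replicate 3 held most counts.

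Adamts6 and Adamts10, proteases linked to fibrillin microfibrils, did not pass. Adamts6 had 8.59, 14.1 and 30.6 CPM in Gmppb-KO and 14.6, 12.5 and 14.5 CPM in wild-type libraries. Gmppb-KO replicate 3 was high and replicate 1 was below all wild-type libraries, and without replicate 3 the log2 fold change turned to -0.34, against 0.36 with it. Adamts10 had 7.94, 7.28 and 5.14 CPM in Gmppb-KO and 11, 10.3 and 9.89 CPM in wild-type libraries, a separation by less than 1 doubling (log2 fold change -0.62, edgeR adjusted p = 0.27). Adamts16, not tested, had 21, 5 and 25 counts in Gmppb-KO and 2, 0 and 4 counts in wild-type libraries. Adamts13, the protease of von Willebrand factor, Adamts18, Adamts19 and Adamts20 had 0 counts throughout, and Adamts17 had 2 in all.

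Of the Adamtsl genes, Adamtsl5 was far above the rest. It had 203, 210 and 147 CPM in Gmppb-KO and 160, 185 and 118 CPM in wild-type libraries, and it made up 92.5 ± 1.93% of the family level per kilobase in Gmppb-KO and 89.6 ± 4.28% in wild-type libraries (SD, n = 3 each). The groups overlapped, with replicate 3 the lowest in both, and the log2 fold change of 0.27 had a 95% interval from -0.27 to 0.82. Adamtsl4, whose loss displaces the lens in humans, had 13.4, 10.4 and 11.4 CPM in Gmppb-KO and 12.4, 11.1 and 16.2 CPM in wild-type libraries and did not pass. Adamtsl1 and Adamtsl3 did not pass either, at 1.08 and 0.733 times the wild-type level. Without Gmppb-KO replicate 3 these were 0.871 and 0.407 times, and the sign of Adamtsl1 also turned without wild-type replicate 1. Adamtsl2 had 0 counts in Gmppb-KO and 4 in wild-type libraries over each group.

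Gmppb-KO replicate 3 differed from the other libraries of its group in part of the set. Its CPM was at least 2 times the next highest Gmppb-KO library in 6 of the 25 tested members, or 24%, and in 12.3% of all tested genes. The 6 were Adamts1, Adamts5, Adamts6, Mmp16, Timp3 and Adamtsl3. It was the highest of its group in 11 of the 25, or 44%, and in 45.5% of all tested genes. Mmp2 and Adamts2 were at 0.955 and 0.974 times the next highest library there, so their rise does not rest on it.

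**Figure D4:**
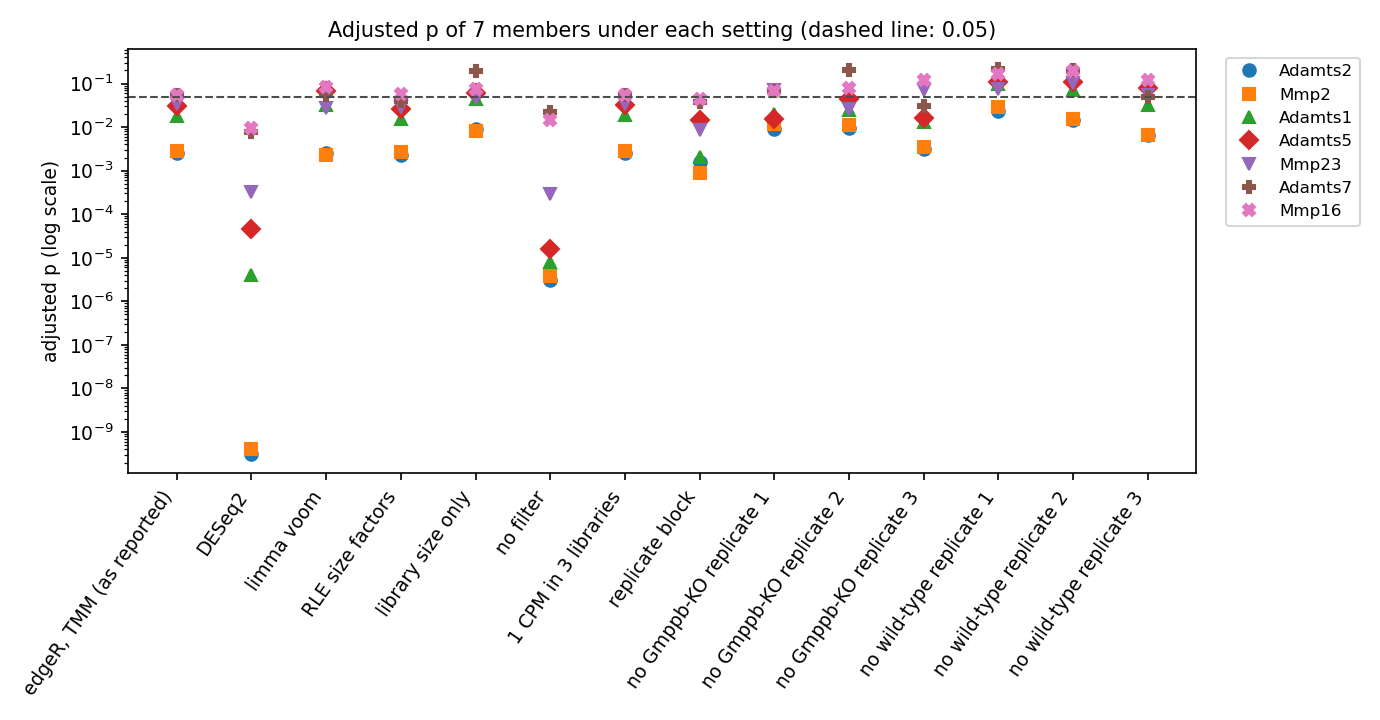
Adjusted p on a log axis for the 5 called members, Adamts7 and Mmp16 under the reported test and 13 other settings, with a dashed line at 0.05. Mmp2 and Adamts2 lie under the line in every setting, and the other 5 genes cross it in at least 2.

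The enzymes that activate these proteases, their further inhibitors and their substrates were read from 11 lists with 111 genes in the table, 84 of them tested. Of these 8 rose and 6 fell, 16.7% of those tested, against 5.59% of all tested genes. The 84 had a median log2 fold change of 0.14 beside 0.11 over all genes. DESeq2 called 24 of the 111, among them Mfap2, which edgeR did not test, where it called 8.17% of all genes it tested. The lists were chosen with earlier results of these data known, so these shares describe the lists alone. Activators of matrix proteases had 3 of 6 tested members higher and 0 lower. Plat and Plau, the tissue and urokinase activators of plasminogen, rose 2.39-fold and 2.16-fold (edgeR adjusted p = 0.0197 and 0.0277). The proprotein convertase gene Pcsk6 rose 4.00-fold at a low level (edgeR adjusted p = 0.0421), with 7, 6 and 10 counts in wild-type libraries. Pcsk6 passed the filter on low counts only through the Gmppb-KO group, so its call could only be higher. Plau had 197, 196 and 264 CPM in Gmppb-KO and 101, 80.6 and 122 CPM in wild-type libraries, and Plat had 67.9, 65.3 and 80.9 CPM in Gmppb-KO and 32.8, 21.3 and 35.3 CPM in wild-type libraries. In both genes every Gmppb-KO library was above every wild-type library. Plg, encoding plasminogen itself, had 0 counts in all 6 libraries. The calls of Plat and Plau were lost under scaling by library size only and without wild-type replicate 1 or 2 or Gmppb-KO replicate 2, that of Plau also without Gmppb-KO replicate 1, and that of Pcsk6 with limma voom and in all 6 fits lacking 1 library.

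Of 8 tested genes for receptors of the plasminogen system and serpins, 1 fell and 0 rose: Serping1, the inhibitor of the complement enzyme C1, 12-fold lower (edgeR adjusted p = 0.00192). It had 2.34, 1.74 and 0.943 CPM in Gmppb-KO and 21, 23.8 and 15.6 CPM in wild-type libraries. Serping1 is known chiefly for complement, not for the plasminogen activators. Of 8 tested Adam genes, a family that includes membrane proteases that shed surface proteins, 1 fell. This was Adam8, 4.77-fold lower at 4.08, 4.14 and 3.72 CPM in Gmppb-KO and 16.9, 15.2 and 24.9 CPM in wild-type libraries (edgeR adjusted p = 0.0038). Neither gene's groups overlapped. Of these receptors and serpins 3 had an unadjusted edgeR p below 0.05. DESeq2 called 2, adding as higher Serpinh1, a serpin not known as a protease inhibitor. Of the Adam genes 4 had an unadjusted edgeR p below 0.05, and DESeq2 called 3, adding Adam19 as higher (3.18-fold in edgeR) and Adam12 as lower (3.1-fold in edgeR). EdgeR called 0 of 9 membrane anchors and clearance receptors and 0 of 8 cathepsins and cystatins, while 2 and 4 of them had an unadjusted p below 0.05 and DESeq2 called 0 and 1.

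**Figure D5:**
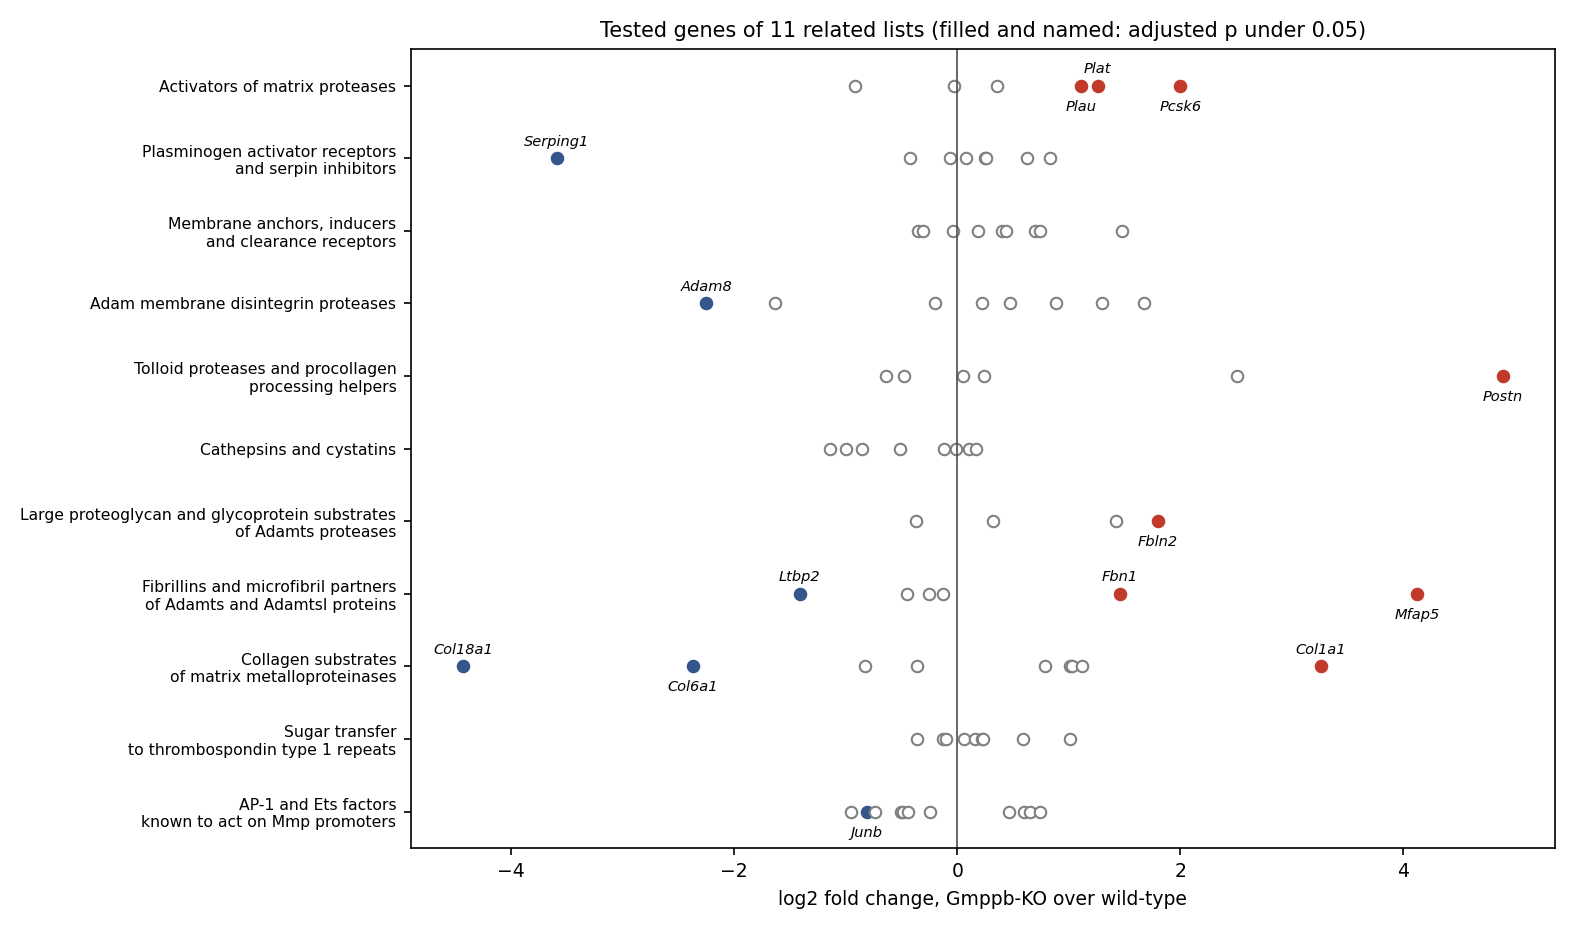
Log2 fold change of Gmppb-KO over wild-type for each tested gene of the 11 related lists, 1 row per list, with filled and named points for those past the threshold. The activators Plat, Plau and Pcsk6 lie between 1.11 and 2.00, and the collagen row spreads from Col18a1 at -4.43 to Col1a1 at 3.26.

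Of 9 collagen genes, 1 rose and 2 fell: Col1a1, a chain of the type I collagen that Adamts2 processes, was 9.59-fold higher (1586, 1132 and 1732 CPM in Gmppb-KO and 147, 129 and 188 CPM in wild-type libraries; edgeR adjusted p = 0.000577), and Col6a1 and Col18a1 were 5.17-fold and 21.5-fold lower. In all 8 of the 9 had an unadjusted p below 0.05, and DESeq2 called 6, adding Col1a2 and Col5a2 as higher and Col4a2 as lower. Of 6 tested microfibril genes, 2 rose and 1 fell, with Fbn1, encoding fibrillin-1, 2.74-fold higher (119, 84.7 and 170 CPM in Gmppb-KO and 40.5, 33.1 and 62.8 CPM in wild-type libraries; edgeR adjusted p = 0.0393). The Fbn1 call was lost under scaling by library size only and without Gmppb-KO replicate 1 or 3 or wild-type replicate 1 or 2. Mfap5 was 17.4-fold higher and Ltbp2 2.67-fold lower in the same list. Of 4 tested proteoglycan and glycoprotein substrates, 1 rose, Fbln2, encoding fibulin-2, by 3.49-fold (385, 309 and 440 CPM in Gmppb-KO and 118, 87.4 and 119 CPM in wild-type libraries; edgeR adjusted p = 0.00328). Its groups were far apart. Of 6 tested genes of the tolloid and procollagen helper list, 1 rose, Postn, a matrix protein and no protease, 29.7-fold (edgeR adjusted p = 0.00268). It had 42.8, 68.6 and 196 CPM in Gmppb-KO and 3.03, 3.51 and 3.8 CPM in wild-type libraries, and its log2 fold change was 3.96 without Gmppb-KO replicate 3, against 4.89 with it.

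EdgeR called 0 of 9 tested genes of sugar transfer to thrombospondin repeats, the modification of Adamts and Adamtsl proteins that draws on GDP-fucose and dolichol-phosphate mannose, and 0 had an unadjusted p below 0.05 or were called by DESeq2 or limma voom. Of 11 tested AP-1 and Ets factor genes, Junb fell 1.75-fold and 0 rose, while 4 had an unadjusted edgeR p below 0.05. DESeq2 called 3, adding Ets2 and Etv4 as lower. Junb had 97.9, 89.4 and 77.8 CPM in Gmppb-KO and 156, 139 and 170 CPM in wild-type libraries, an edgeR adjusted p of 0.0424 that was lost under scaling by library size only and in 5 of the 6 fits lacking 1 library, the exception being Gmppb-KO replicate 3.

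Markers of other cell types were read beside these changes. Among 6 tested markers of fibroblasts and fibro-adipogenic cells, Mfap5 and Dcn rose and Osr1 fell. Osr1 passed the filter on low counts only through wild-type libraries, so its call could only be lower. The summed level of the 9 markers of this list ranged from 783 to 983 CPM in Gmppb-KO and from 422 to 532 CPM in wild-type libraries. Most of it was Ly6a, and Lum was at 0 in all libraries. The part of this difference in the rise of Mmp2 and Adamts2 was not tested. Adipocyte markers summed to 0.66 to 1.34 CPM in Gmppb-KO and 0 CPM in wild-type libraries. Of these Fabp4, the 1 tested, had 16, 24 and 14 counts in Gmppb-KO and 0 in each wild-type library. It passed the filter on low counts only through the Gmppb-KO group, so its call (edgeR adjusted p = 0.0162) could only be higher. Adipoq, Plin1, Lep and Cidec were at 0 in all libraries. Leukocyte markers summed to 2.55 to 4.65 CPM in Gmppb-KO and 2.67 to 6.07 CPM in wild-type libraries, with Adgre1, Itgam and Kit at 0, and endothelial markers to at most 0.849 CPM, with Pecam1, Cdh5 and Emcn at 0. Osteoblast and chondrocyte markers summed to 29.2 to 53.2 CPM in Gmppb-KO and 43.9 to 61.1 CPM in wild-type libraries, with Ibsp, Col2a1 and Acan at 0. Smooth muscle markers summed to 2595 to 5019 CPM in Gmppb-KO and 4038 to 6407 CPM in wild-type libraries, with Rgs5 at 0, and their sums are mostly Des and Acta2, which myoblasts also express. The leukocyte, osteoblast and smooth muscle lists had just 1, 2 and 4 tested markers, and edgeR called 0 of each. In these lists 0, 0 and 1 had an unadjusted edgeR p below 0.05, and DESeq2 called 0, 0 and 1. The 1 was Cnn1, lower in Gmppb-KO (3.65-fold in edgeR).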

How the data were processed

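Per the submitters' processing notes, the tools were FastQC, HISAT2, Subread, featureCounts and DESeq2 with mm10 as the build. Which annotation release and strand setting were used is not given in the sources used here. Deposited read counts per gene are whole numbers and not normalized, per the file headers. The same deposited table holds the authors' FPKM, their log2 fold change per gene and its p-value, raw and adjusted. It also gives a gene length in bases and the authors' group means of normalized counts, a signal used in no result. The 201 loci without a gene name took 0.0699% to 0.195% of the counts of a library and were left out.

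The test of all rows with a gene name used edgeR 4.0.16 under R 4.3.3 (TMM, filterByExpr, quasi-likelihood F test, 2-sided, group as the only term), with Benjamini-Hochberg adjustment over all 12786 tested genes and a threshold of 0.05. CPM were computed with the TMM-scaled library size. Means carry the SD over n = 3, the SE was taken from the F statistic, and 95% intervals use the t distribution of the fit. Fold changes are 2 to the fitted log2 fold change. Levels per kilobase use the deposited gene length. Alternatives were DESeq2 1.42.0, limma voom 3.58.1, 2 other scalings, 2 other filters, a replicate block and leaving out each library. The fit was tested on simulated data with known changes.

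Described with the value in every library are members past the threshold, tested members averaging 10 CPM or more in either group, and untested members with at least 10 counts in a library; from each related list, at most 4 genes past the threshold. The members and lists were chosen with earlier results of these data known, and Gfus was matched by its older symbol Tsta3. Coordinates are those deposited; 49 of the 50 members had the same coordinates in GENCODE M21 (GRCm38), and RefSeq held promoters for 35 of them by symbol. Counts limit precision for members under about 10 counts a library.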

Additional observations from a re-analysis of the deposited data

How the results depend on the processing

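Mmp2 and Adamts2 were called in all 13 alternatives, with log2 fold changes of 1.75 to 2.04 and 1.85 to 2.16. Adamts1 was called in 11 of 13, Adamts5 and Mmp23 in 8 of 13, and all 5 called members kept their direction. Adamts7 was called in 6, Mmp16 in 3 and Timp3 in 1. DESeq2, no filter on low counts and a replicate block gave 1295, 1419 and 1618 called genes, against 715, and 24, 27 and 31 called genes of the related lists, against 14. The replicate block called 8 members, against 5, among them 1 Timp gene, Timp3 (log2 fold change 1.04, edgeR adjusted p = 0.022), which was higher in Gmppb-KO in all 3 same-numbered comparisons. Deviations of libraries with the same number correlated at -0.18, 0.51 and 0.42 for replicates 1, 2 and 3, so replicates 2 and 3 deviated together and replicate 1 did not, and the numbers were not taken as pairs; libraries 2 and 3 matched their own number best and Gmppb-KO replicate 1 matched wild-type replicate 2. Leaving out each library gave 331 to 749 called genes, 2 to 5 called members, 1 to 2 Mmp genes, 1 to 4 Adamts genes and 9 to 17 genes of the related lists. Over all genes the count was 331 without wild-type replicate 1, 444 without wild-type replicate 2 and 397 without Gmppb-KO replicate 2, and 2 members were called without wild-type replicate 1 or 2. Signs turned for Adamts6 (-0.34 to 0.59 over the fits lacking 1 library, negative without Gmppb-KO replicate 3), Mmp14 (-0.09 to 0.28, with -0.04 without wild-type replicate 2) and Timp1 (-0.18 to 0.40, with -0.0016 and -0.05 without Gmppb-KO replicates 1 and 2). Those of Adamtsl1, Mmp17 and Mmp28 also turned. Without division by gene length, Mmp2 held 60.6% of the Mmp level in Gmppb-KO, Timp1 held 43.6% of the Timp level in Gmppb-KO and 46.6% in wild-type, and Adamts2 held 26.2% of the Adamts level in Gmppb-KO and 8.79% in wild-type libraries, since longer genes then weigh more. Scaling by library size only moved the median log2 fold change of all genes by 0.16. The cause of the other changes was not tested.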

Other observations

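The authors' deposited table gave an adjusted p under 0.05 for 7 of the 50 members, 5 of them higher in Gmppb-KO, which are the 5 called here with Adamts7 (log2 fold change -0.96) and Mmp16 (1.96) in the authors' deposited table.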
